A study of Mus musculus with 6 samples.

Results

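The Toll-like receptor genes Tlr2, Tlr3, Tlr4, Tlr5, Tlr7 and Tlr9, the lipopolysaccharide co-receptor genes Cd14 and Ly96, and the adaptor genes Myd88 and Ticam1 were examined in injured mouse liver. These 10 genes were taken by symbol from the 54532 rows of a gene count table, and each symbol had a single row. The livers came from C57bl/6 mice of 2 groups, IRF8-cKO, described as hepatocyte-specific IRF8-deficient, and WT, described as wild type. Both groups underwent warm ischemia for 1 h and reperfusion for 12 h, and bulk RNA of the ischemic lobe was sequenced, with 3 libraries in each group, always listed here in the order WT-14, WT-44, WT-77 and then IRF8-cKO-71, IRF8-cKO-88, IRF8-cKO-106. The promoter that drives the hepatocyte-specific deletion, the age of the mice and whether each library is a separate animal were not stated in the labels, so p-values measure the spread between these libraries, which may be technical. Uninjured liver is not analysed here, and all values are levels in injured tissue.

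Toll-like receptors recognise microbial molecules and molecules released from damaged cells. Tlr2, Tlr4 and Tlr5 encode receptors of the cell surface, and Tlr3, Tlr7 and Tlr9 encode receptors of endosomes that bind nucleic acids. CD14 passes lipopolysaccharide to the complex of TLR4 with MD-2, the product of Ly96. MyD88 carries the signal of nearly every Toll-like receptor to NF-kB, while TRIF, the product of Ticam1, serves TLR3 and endosomal TLR4 and leads to interferon genes. In liver the receptors are best known from Kupffer cells, other myeloid cells and sinusoidal endothelium, and hepatocytes make CD14 in the acute-phase response.

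Library totals were 14758237 to 16805830 counts. Irf8, the targeted gene, was covered by 152, 110 and 155 reads in the WT libraries and by 92, 109 and 90 reads in the IRF8-cKO libraries. Scaled to a common, composition-adjusted library size (CPM), these were 9.32, 9.50 and 10.3 in WT and 5.67, 6.72 and 4.17 in IRF8-cKO. The groups did not overlap, and 14.5% of all tested genes were likewise lower without overlap. The difference of -0.81 on the log2 scale (SE 0.33) was short of the threshold in edgeR's quasi-likelihood test (adjusted p = 0.174). Immune cells also express Irf8, and counts per gene do not show a deleted exon. Over all genes, 182 of 13134 tested genes (1.39%) passed at an adjusted p under 0.05 in edgeR, 59 higher and 123 lower in IRF8-cKO, or 39 higher and 43 lower with library totals as the only scaling, which moved the median over all genes (log2 fold change) from 0.03 to 0.25.

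Promoter windows of 6 of the 10 genes, Tlr2, Tlr3, Tlr5, Tlr9, Myd88 and Ticam1, were matched in RefSeq (build GRCm38.p6), and the 250 bases before each start site were searched on both strands. Motifs were GAAA, NN and GAAA in a row, a repeat bound by interferon regulatory factors, then GGAA, NN and GAAA in a row, the composite element that IRF8 can bind with an ETS factor, and the NF-kB consensus. The first was found in the Myd88 window alone and in 2.98% of all 32851 windows of that length. The NF-kB consensus was found in the Tlr2 and Tlr3 windows and in 7.25% of all windows. The composite element was in 0 of the 6 windows and in 2.3% of all. The first and the composite element cannot start at the same base of a strand, and the capitals in the Tlr2 stretch join overlapping matches on both strands. The 3 stretches below are shown because they hold these matches, which are in capitals, and each is a match of letters only.
Myd88: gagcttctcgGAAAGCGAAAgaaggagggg
Tlr2: taggacacctGGGGAATTCCCacacggagc
Tlr3: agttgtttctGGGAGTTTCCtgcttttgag
The 30-base stretches lie at chr9:119340039-119340068 for Myd88, chr3:83841762-83841791 for Tlr2 and chr8:45410572-45410601 for Tlr3, all on the minus strand. Their matches begin 40, 173 and 211 bases before the RefSeq start site. In GENCODE M21, which places some start sites further upstream, 3, 6 and 30 of their bases are exonic. Of these 3 genes, 0 passed the test between groups described below.

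No Toll-like receptor, co-receptor or adaptor gene passed between IRF8-cKO and WT livers on all 6 libraries. Of the 10 genes, 9 had enough reads to be tested and 0 of 9 passed in edgeR, where 1.39% of all genes did (0.449% higher and 0.937% lower). DESeq2 and limma-voom also called 0, and 1 of 9, Tlr5, had an unadjusted p under 0.05 in edgeR, against 24.1% of all genes. The median log2 fold change of the 9 genes was 0.21, beside 0.03 over all tested genes, with 6 positive and 3 negative. Over all tested genes 51.5% were positive. Expression in CPM (reads scaled to a common, composition-adjusted library size) did not overlap between groups for 1 of 9, Tlr5, whereas it did not overlap for 28.9% of all tested genes. A p above the threshold does not show that levels were equal, and the 95% intervals of the log2 fold changes span from 1.18 units for Myd88 to 4.43 for Cd14.

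**Figure D1:**
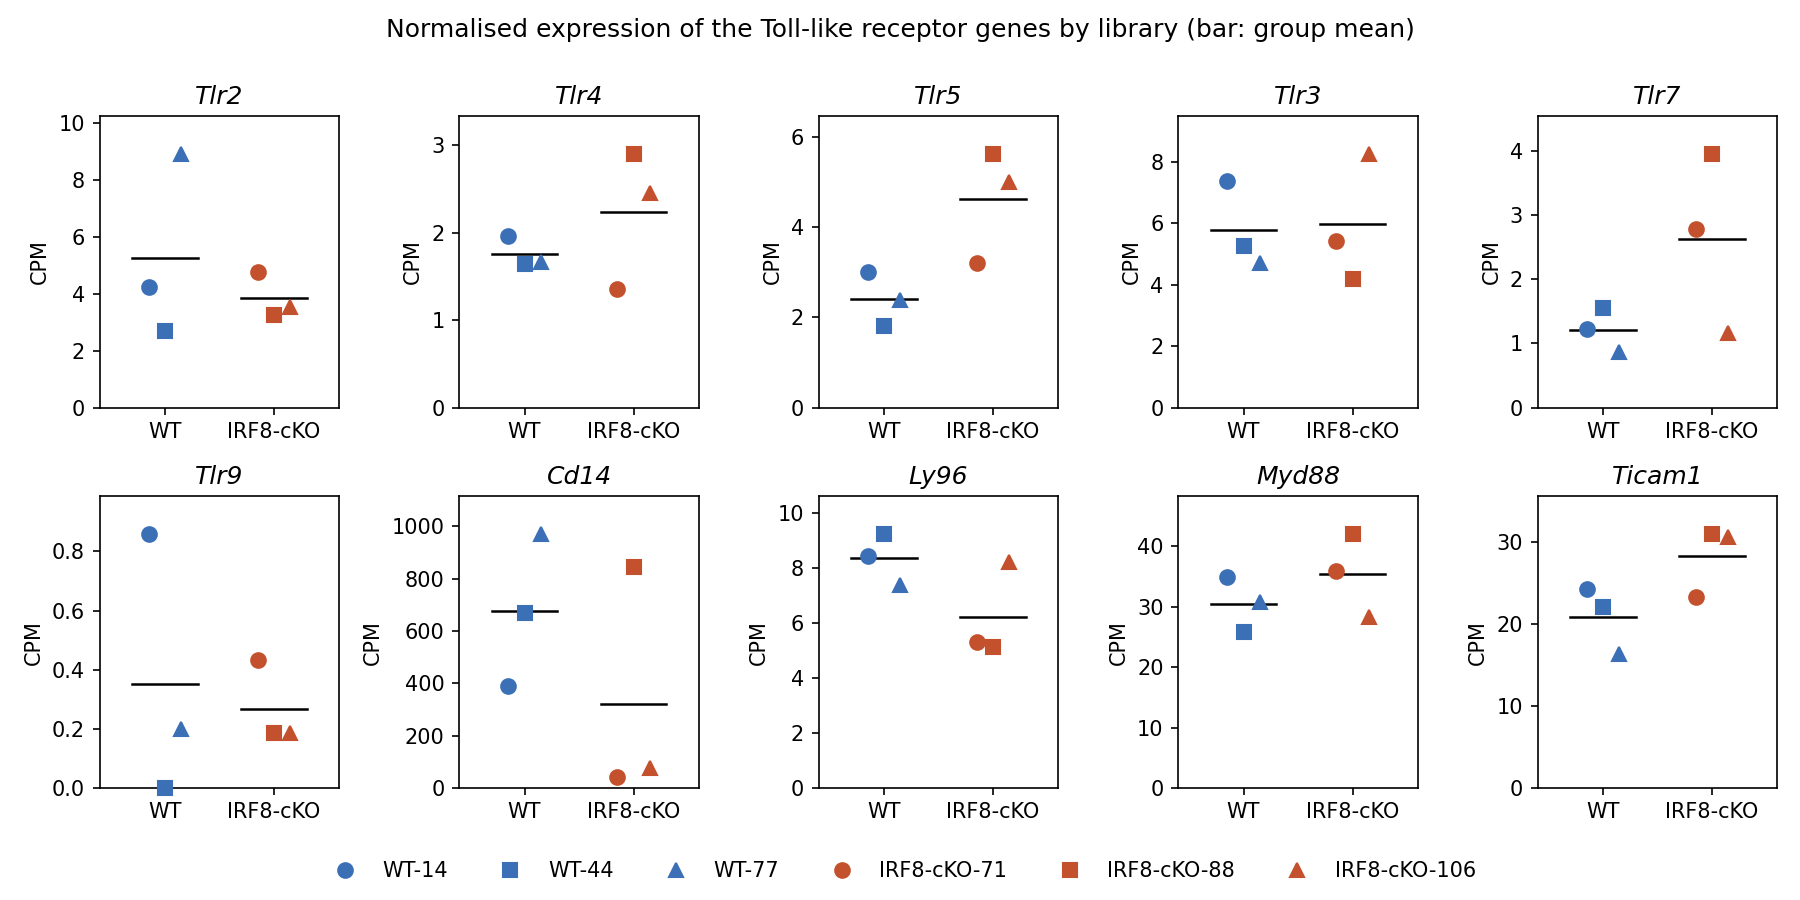
CPM of each gene in each library (linear axes from 0, a separate scale per gene), WT in blue and IRF8-cKO in orange, with the group mean as a bar. Cd14 lies at 42.9 CPM in IRF8-cKO-71, 77.7 in IRF8-cKO-106 and 843 in IRF8-cKO-88, and Tlr5 alone among the tested genes shows no overlap of the groups.

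Among the surface receptors, Tlr4 (ENSMUSG00000039005, mm10 chromosome 4, 66827584 to 66930284, plus strand), the lipopolysaccharide receptor, was expressed at a low level in both groups. It stood at 1.96, 1.64 and 1.66 CPM in the WT libraries and at 1.36, 2.90 and 2.46 CPM in the IRF8-cKO libraries, from 19 to 53 reads per library. The lowest and the highest value were both in IRF8-cKO, so the groups overlapped. Its log2 fold change was 0.35 (SE 0.46, 95% interval -0.68 to 1.38, edgeR adjusted p = 0.677). In WT the SD of log2 CPM was 0.13, and 87.9% of tested genes had a larger one. It rests on 32, 19 and 25 reads, where counting error is large, and does not show a stable level.

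Tlr2 (ENSMUSG00000027995, chromosome 3, 83836272 to 83841767, minus strand), which senses bacterial lipoproteins with Tlr1 or Tlr6, stood at 4.23, 2.68 and 8.90 CPM in the WT libraries. The IRF8-cKO libraries had 4.75, 3.27 and 3.52 CPM. All 3 IRF8-cKO values fell within the WT range, whose highest library was WT-77. Its log2 fold change of -0.46 (SE 0.48, edgeR adjusted p = 0.578) became 0.14 without WT-77 and -0.78 without WT-44.

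Tlr5 (ENSMUSG00000079164, chromosome 1, 182954788 to 182976044, plus strand), the receptor of bacterial flagellin, had 3.00, 1.81 and 2.39 CPM in the WT libraries. It had 3.21, 5.61 and 5.004 CPM in the IRF8-cKO libraries. Each IRF8-cKO library was above each WT library, although IRF8-cKO-71 exceeded WT-14 by little, 52 reads against 49. The log2 fold change was 0.93 (SE 0.42, 95% interval 0.01 to 1.86), and the gene did not pass over all genes tested (edgeR adjusted p = 0.204). Groups without overlap and higher in IRF8-cKO were found for 14.4% of tested genes. The 3 tested genes whose log2 CPM followed Tlr5 most closely over the 6 libraries were Rprd1b (Pearson r 0.994), Gcc2 (0.993) and Arel1 (0.991). These are the highest of 13133 coefficients over 6 points that share library, depth and scaling, and are a description.

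The endosomal receptor gene Tlr3 (ENSMUSG00000031639, chromosome 8, 45395665 to 45411080, minus strand), whose product binds double-stranded RNA, had close group means of 5.78 ± 1.39 CPM in WT, against 5.96 ± 2.08 in IRF8-cKO (SD, n = 3). The WT libraries had 7.35, 5.27 and 4.72 CPM, and the IRF8-cKO libraries had 5.43, 4.19 and 8.25 CPM. The highest and lowest libraries were again both IRF8-cKO. For Tlr3 the log2 fold change of 0.04 (SE 0.39, 95% interval -0.82 to 0.91, edgeR adjusted p = 0.955) has no stable sign. Without 1 library it ranged from -0.25 (IRF8-cKO-106) to 0.26 (WT-14). An antisense gene, Gm45542, overlaps 381 exonic bases of Tlr3 and had 0 reads in each library.

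Tlr7 (ENSMUSG00000044583, chromosome X, 167304929 to 167330558, minus strand), a receptor of single-stranded RNA, stood at 1.23, 1.55 and 0.864 CPM in the WT libraries. IRF8-cKO-71 and IRF8-cKO-88 were higher, at 2.77 and 3.95 CPM, while IRF8-cKO-106 at 1.16 CPM lay within the WT range. These values rest on 13 to 64 reads per library. For Tlr7 the log2 fold change of 1.11 was the largest positive one among the 9 tested genes, with a wide error (SE 0.56, 95% interval -0.13 to 2.34, edgeR adjusted p = 0.246). It was 0.69 without IRF8-cKO-88 and 1.49 without IRF8-cKO-106.

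Tlr9 (ENSMUSG00000045322, chromosome 9, 106222598 to 106226883, plus strand), the receptor of unmethylated CpG DNA, was at the edge of detection and below the count filter. It had 14, 0 and 3 reads in the WT libraries and 7, 3 and 4 reads in the IRF8-cKO libraries. A count of 0 in WT-44 allows a level of up to 0.259 CPM (3 counts, counting error only), which is above the values in WT-77, IRF8-cKO-88 and IRF8-cKO-106, so WT-44 could not be told from these. No difference between groups was detectable for Tlr9 at this depth. All 6 receptors together had 150 to 444 reads per library.

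The highest level, and the widest spread over all 6 libraries and within IRF8-cKO, was that of Cd14 (ENSMUSG00000051439, chromosome 18, 36725074 to 36726736, minus strand), the co-receptor that hands lipopolysaccharide to TLR4. It was covered by 6337, 7756 and 14584 reads in the WT libraries and by 696, 13667 and 1678 reads in the IRF8-cKO libraries. In CPM these were 388, 670 and 969 in WT and 42.9, 843 and 77.7 in IRF8-cKO. IRF8-cKO-71 and IRF8-cKO-106 lay below each WT library, whereas IRF8-cKO-88 exceeded WT-14 and WT-44. By read count Cd14 ranked between 117 and 272 among all genes in the WT libraries and 139 in IRF8-cKO-88, but 2729 in IRF8-cKO-71 and 1501 in IRF8-cKO-106.

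Cd14 differed 19.6-fold between the highest and the lowest IRF8-cKO library and 2.49-fold between the highest and the lowest WT library. Its SD of log2 CPM within IRF8-cKO was 2.27, and 0.388% of tested genes had a larger one, while in WT it was 0.66, less than that of Tlr2 (0.85), and 15.3% had a larger one. On all 6 libraries the log2 fold change was -1.07 (SE 0.97, 95% interval -3.29 to 1.14), which did not pass (edgeR adjusted p = 0.524). Without IRF8-cKO-88 it was -3.48 (SE 0.52, edgeR adjusted p = 0.00595), and without IRF8-cKO-71 or IRF8-cKO-106 it was -0.54 and -0.59. Over all alternatives the adjusted p ranged from 0.00595 to 0.771, and the sign was negative in each of the 15. IRF8-cKO-88 was singled out here after its Cd14 level was seen, so the value without it is a description of the other 5 libraries. The same exclusion raised the calls among all genes from 182 to 1205.

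**Figure D2:**
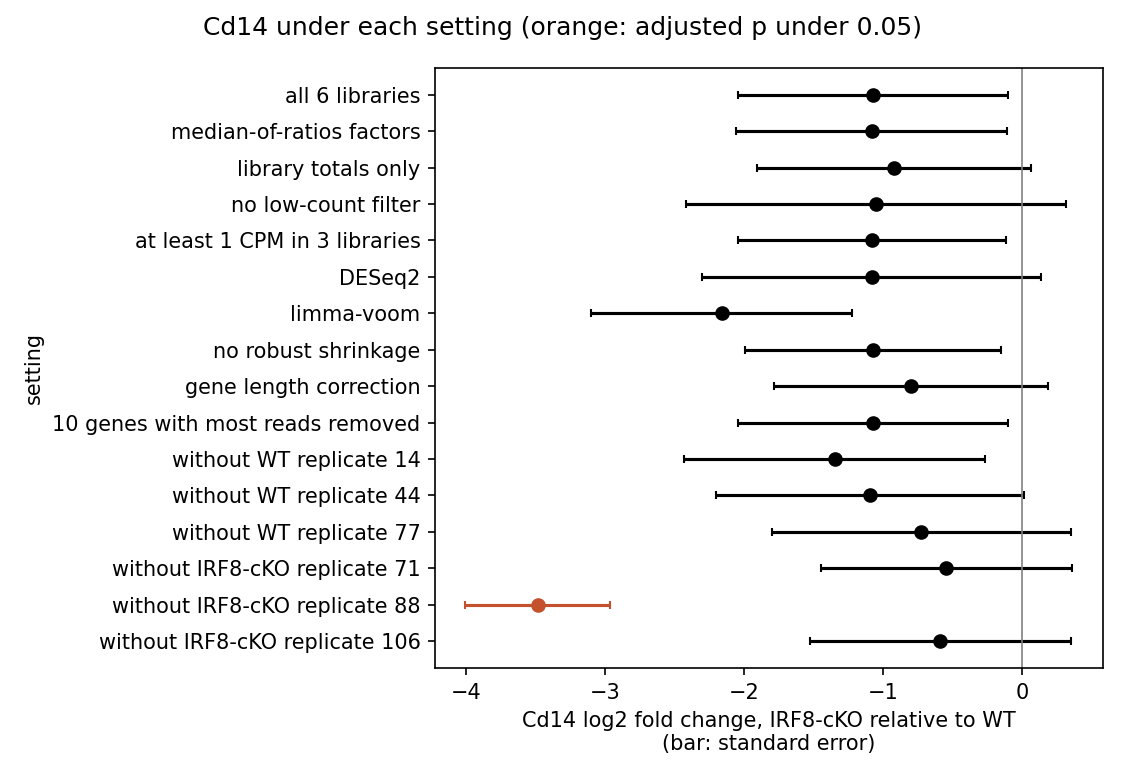
Cd14 log2 fold change (x axis, IRF8-cKO relative to WT) with its standard error under each setting (y axis), orange where the adjusted p was under 0.05. The value is -1.07 on all 6 libraries and -3.48 without IRF8-cKO-88, the single setting that passed.

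Ly96 (ENSMUSG00000025779, chromosome 1, 16688051 to 16709611, plus strand), whose product MD-2 sits on TLR4 and binds lipopolysaccharide directly, did not share the spread of Cd14. It had 8.46, 9.24 and 7.37 CPM in the WT libraries and 5.30, 5.12 and 8.25 CPM in the IRF8-cKO libraries. The lower IRF8-cKO libraries were IRF8-cKO-71 and IRF8-cKO-88, and IRF8-cKO-106 lay within the WT range. The log2 fold change was -0.42 (SE 0.34, 95% interval -1.18 to 0.34, edgeR adjusted p = 0.466). Per gene length, the ratio of Cd14 to Ly96 was 29.8, 47.1 and 85.3 in the WT libraries, 107 in IRF8-cKO-88, 5.26 in IRF8-cKO-71 and 6.12 in IRF8-cKO-106. The lipopolysaccharide receptor chain genes were not in 1 fixed proportion across libraries. Ly96 to Tlr4 was 23.5, 30.6 and 24.2 in the WT libraries and 21.3, 9.61 and 18.3 in the IRF8-cKO libraries. These did not overlap, but the nearest, in WT-14 and IRF8-cKO-71, rest on 32 and 22 Tlr4 reads. Cd14 to Ly96, Cd14 to Tlr4 and Tlr2 to Tlr4 overlapped between groups. In CPM, 28.9% of all tested genes did not overlap, and no ratio was tested.

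The adaptor gene Myd88 (ENSMUSG00000032508, chromosome 9, 119335934 to 119341411, minus strand) had the smallest ratio of highest to lowest library among the 9 tested genes, 1.63. It stood at 35.0, 25.8 and 30.8 CPM in the WT libraries and at 35.9, 42.01 and 28.3 CPM in the IRF8-cKO libraries. The groups overlapped, with a log2 fold change of 0.21 (SE 0.26, 95% interval -0.38 to 0.80, edgeR adjusted p = 0.653). Acaa1a, a peroxisomal fatty acid oxidation gene, overlaps 290 exonic bases of Myd88 on the other strand. Whether counting used the strand is not given in the sources used here, so part of the Myd88 count may be reads of Acaa1a. Acaa1a stood at 152, 241 and 278 CPM in the WT libraries and at 275, 187 and 143 CPM in the IRF8-cKO libraries, and its part in the Myd88 values was not tested.

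Ticam1 (ENSMUSG00000047123, chromosome 17, 56269319 to 56276786, minus strand) had 24.2, 22.1 and 16.3 CPM in the WT libraries and 23.3, 30.9 and 30.6 CPM in the IRF8-cKO libraries. IRF8-cKO-88 and IRF8-cKO-106 were above each WT library and IRF8-cKO-71 was not. The log2 fold change was 0.44 (SE 0.27, 95% interval -0.16 to 1.04, edgeR adjusted p = 0.335). The ratio of Ticam1 to Myd88 per gene length was 0.457 to 0.737 in WT and 0.559 to 0.933 in IRF8-cKO, so the groups overlapped.

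**Figure D3:**
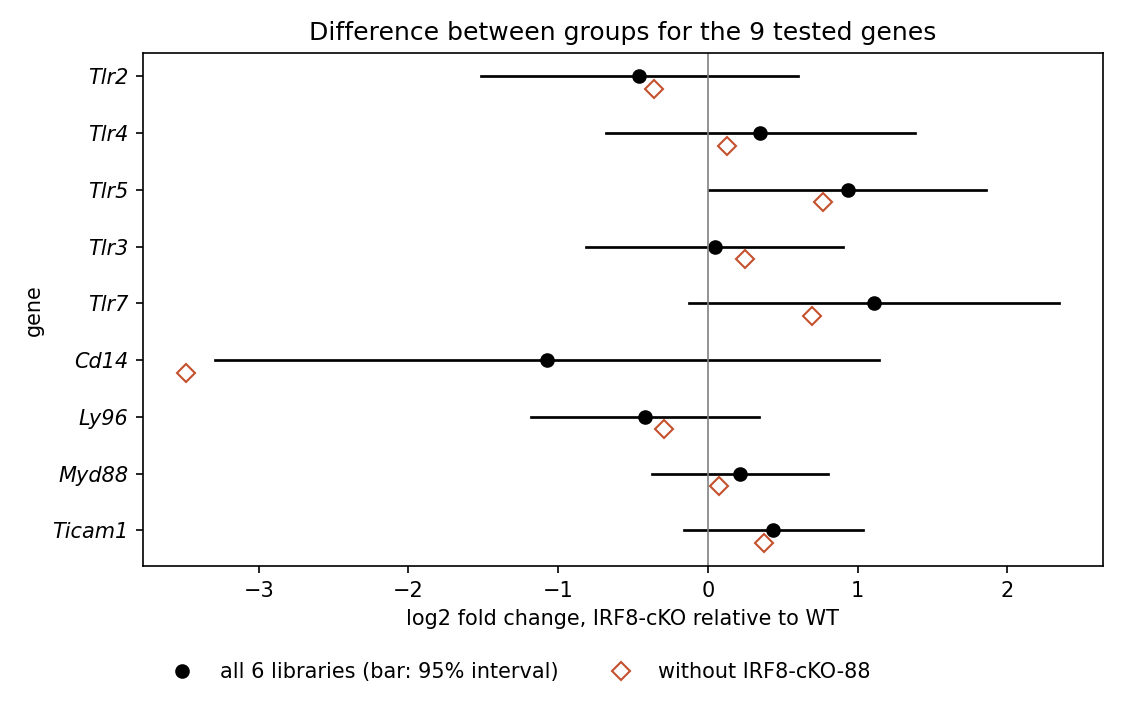
Log2 fold change of the 9 tested genes (x axis, IRF8-cKO relative to WT) on all 6 libraries with its 95% interval (black) and without IRF8-cKO-88 (orange diamonds, no interval drawn). Every interval includes 0 except that of Tlr5, 0.01 to 1.86, and Cd14 moves to -3.48 without IRF8-cKO-88 while the other 8 genes stay within their intervals.

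Compared per gene length, as CPM per kilobase, the 10 genes had nearly the same order in both groups. In WT, Cd14 at 430 ± 185 CPM per kilobase (SD, n = 3) was followed by Myd88 at 11.8 ± 1.78, Ly96 at 8.19 ± 0.916 and Ticam1 at 6.98 ± 1.36. The receptor genes came last: Tlr2 at 1.75 ± 1.08, Tlr3 at 1.11 ± 0.267, Tlr5 at 0.502 ± 0.124, Tlr4 at 0.316 ± 0.0323, Tlr7 at 0.298 ± 0.0846 and Tlr9 at 0.101 ± 0.129. Among these neighbours, the WT libraries overlapped for Ly96 and Ticam1, for Tlr2 and Tlr3, for Tlr4 and Tlr7 and for Tlr7 and Tlr9. In IRF8-cKO, Ticam1 at 9.45 ± 1.44 CPM per kilobase stood before Ly96 at 6.10 ± 1.72, and Tlr7 at 0.644 ± 0.343 before Tlr4 at 0.403 ± 0.143, with overlapping libraries in both pairs and also for Tlr2 and Tlr3, for Tlr3 and Tlr5 and for Tlr5 and Tlr7. Co-receptor and adaptor transcripts were thus above those of each receptor in both groups, also where Cd14 was lowest, at 27.3 CPM per kilobase in IRF8-cKO-71.

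The other genes of the pathway were taken from 8 lists by role, 93 symbols of which 92 had a row (Tasl had none under that symbol) and 82 were tested. Over all lists 1 gene rose, 6 fell and 75 did not pass, that is 7 of 82 against 1.39% of all genes, with a median log2 fold change of -0.26. With library totals as the only scaling 0 rose and 3 fell. The most negative medians were those of response genes, negative regulators and transcription factors. Response genes had a median of -1.79 (14 tested, 0 positive), negative regulators -1.23 (12 tested, 2 positive) and transcription factors -0.86 (8 tested, 1 positive). Of all tested genes 51.5% were positive. These lists, and the marker lists below, were chosen with earlier results of these data known. Their shares beside those of all genes are therefore a description. Medians were 0.21 for the other receptors (5 tested), 0.22 for accessory and trafficking proteins (11 tested), 0.21 for other adaptors (2 tested), -0.04 for kinases and ubiquitin ligases (18 tested) and -0.04 for endogenous ligands (12 tested).

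**Figure D4:**
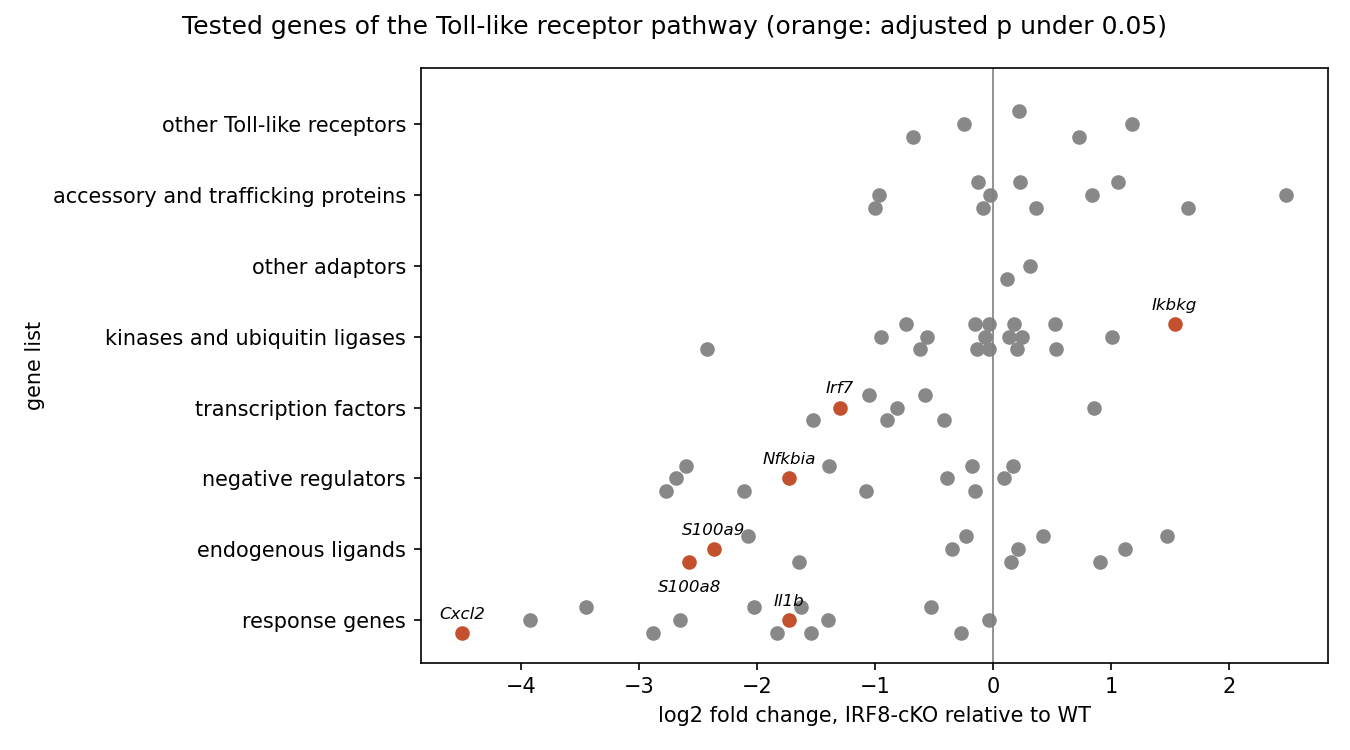
Log2 fold change (x axis, IRF8-cKO relative to WT) of each tested gene in the 8 pathway lists (y axis), 1 point per gene, orange and named where the adjusted p was under 0.05. All 14 response genes lie below 0, with Cxcl2 lowest at -4.50. Of the 82 genes 28 lie above 0, and Ikbkg at 1.54 is the single one of these that passed.

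Of the other receptor genes 0 of 5 passed (edgeR, 0 at an unadjusted p under 0.05). Tlr12, which binds profilin of protozoa, had the lowest p, with a log2 fold change of 1.17 (SE 0.74, edgeR adjusted p = 0.346). Tlr13, a receptor of bacterial ribosomal RNA that is named after its values were seen, was the most counted of them, at 6.56 to 7.51 CPM in WT, against 3.27 to 10.1 in IRF8-cKO. The adaptor gene Tirap, whose product links TLR2 and TLR4 to MyD88, was at 28.2 to 43.5 CPM in WT, against 28.98 to 49.8 in IRF8-cKO (log2 fold change 0.31, SE 0.30, edgeR adjusted p = 0.554). It shares 485 exonic bases with genes of the other strand.

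Among accessory proteins Hsp90b1, the endoplasmic reticulum chaperone GRP94 that folds Toll-like receptors, had the lowest p. It stood at 388, 487 and 416 CPM in the WT libraries and at 4006, 2782 and 419 CPM in the IRF8-cKO libraries. The last of these lay within the WT range, and the log2 fold change of 2.48 (SE 0.67) did not pass (edgeR adjusted p = 0.0878). It passed on all 6 libraries in DESeq2 (2.48, adjusted p = 0.000958) and in edgeR without the low-count filter (2.50, adjusted p = 8.57e-08), and without IRF8-cKO-106 (2.99, edgeR adjusted p = 0.0157). Overlapping genes share 632 exonic bases with Hsp90b1. Lbp, chosen after its values were seen because its product delivers lipopolysaccharide to CD14, was at 58.1 to 93.5 CPM in WT, against 70.5 to 284 in IRF8-cKO (log2 fold change 1.05, SE 0.49, edgeR adjusted p = 0.223). Its highest library was IRF8-cKO-71, where Cd14 was lowest.

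Of the signalling kinases and ligases, Ikbkg rose and 17 of 18 genes did not pass. Ikbkg, encoding the NEMO subunit of the IkB kinase complex, had 66.4, 41.3 and 41.8 CPM in the WT libraries and 132, 126 and 175 CPM in the IRF8-cKO libraries (log2 fold change 1.54, SE 0.30, edgeR adjusted p = 0.0447). The groups did not overlap. G6pdx shares 418 exonic bases with Ikbkg on the other strand and stood at 4.72 to 7.78 CPM in WT, against 3.33 to 22.4 in IRF8-cKO, and its part in the Ikbkg values was not tested. Among transcription factors Irf7, which induces interferon genes after TLR7 and TLR9 signalling, fell (log2 fold change -1.30, SE 0.25, edgeR adjusted p = 0.0446), from 37.3 to 46.2 CPM in WT to 14.9 to 18.3 CPM in IRF8-cKO. The other 7 transcription factor genes did not pass.

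Of 12 tested negative regulators 1 fell, 0 rose and 11 did not pass, while 8 of 12 were lower without overlap of the groups, against 14.5% of all tested genes. Nfkbia, which encodes the NF-kB inhibitor IkB-alpha and is itself an NF-kB target, fell from 70.4, 114 and 139 CPM in the WT libraries to 36.9, 36.3 and 24.4 CPM in the IRF8-cKO libraries (log2 fold change -1.73, SE 0.33, edgeR adjusted p = 0.0446). Socs1 and Dusp1, chosen after their values were seen, had log2 fold changes of -2.69 (SE 0.73, edgeR adjusted p = 0.0887) and -2.77 (SE 0.61, edgeR adjusted p = 0.0589). In Socs1 IRF8-cKO-88 had 9.68 CPM, against 0.987 CPM in IRF8-cKO-71 and 2.78 CPM in IRF8-cKO-106. IRF8-cKO-88 was the highest IRF8-cKO library for 8 of the 12 negative regulators and for 33.8% of all tested genes.

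The endogenous ligand genes S100a8 and S100a9, whose proteins can activate TLR4 and which are made chiefly by neutrophils, fell in IRF8-cKO. S100a8 stood at 58.8 to 68.7 CPM in WT, against 6.67 to 13.3 in IRF8-cKO (log2 fold change -2.57, SE 0.32, edgeR adjusted p = 0.0243), and S100a9 at 61.0 to 76.1 and 7.88 to 16.8 CPM (-2.37, SE 0.33, edgeR adjusted p = 0.0243). The other 10 ligand genes did not pass. Of 14 tested response genes 2 fell and 12 did not pass. Il1b fell from 9.58 to 18.2 CPM in WT to 3.95 to 4.75 CPM in the IRF8-cKO group (log2 fold change -1.73, SE 0.35, edgeR adjusted p = 0.0472), and the neutrophil chemokine gene Cxcl2 from 45.6 to 102 CPM to 0.555 to 8.08 CPM (-4.50, SE 0.83, edgeR adjusted p = 0.0472; -5.85 without IRF8-cKO-88). Without WT-44, 0 of 84 tested pathway genes passed in edgeR, and without WT-77 0 of 85 (31 and 27 at an unadjusted p under 0.05), and without IRF8-cKO-106 2 passed. Several of the 7 named calls were not kept in many of the 15 alternatives. Il1b passed in 7 of 15, Irf7 in 8, Cxcl2 in 9 and Ikbkg and Nfkbia in 10 each. S100a9 passed in 12 and S100a8 in 13.

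In bulk tissue, fewer cells of a type and less RNA per cell cannot be told apart, and several lists of cell type markers moved with the groups. The summed CPM of 11 Kupffer cell markers was 199 to 237 in WT and 256 to 533 in IRF8-cKO. Of their log2 fold changes 11 of 11 were positive, against 51.5% of all tested genes, and 0 passed. C6 made up 49.3% of that total and was left out after its values were seen. The other 10 summed to 74.3 to 97.1 CPM in WT, against 163 to 288 in IRF8-cKO. The 11 markers of monocytes and recruited macrophages summed to 141 to 148 CPM in WT, against 93.1 to 131 in IRF8-cKO, with 7 of 10 tested values negative. Neutrophil markers fell for 5 of 10 tested, against 0.937% of all tested genes, while the sum of all 12 overlapped between groups. S100a8 and S100a9 are among these 5 and are also the endogenous ligand genes that fell, so the 2 lists are not separate observations. Without Lcn2, which hepatocytes also make and which was left out after its values were seen, the other 11 summed to 187 to 231 CPM in WT, against 25.2 to 55.5 in IRF8-cKO, and Ngp, Camp and Ly6g had no read in at least 1 library. Sinusoidal endothelial markers (9 genes) summed to 146 to 205 CPM in WT, against 140 to 218 in IRF8-cKO.

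Beside Cd14, the sums ran differently from list to list. Kupffer cell markers were highest in IRF8-cKO-71 at 533 CPM, the library with the least Cd14, and stood at 290 CPM in IRF8-cKO-88 and 256 in IRF8-cKO-106. Neutrophil markers without Lcn2 stood at 55.5 CPM in IRF8-cKO-88, below each WT library, where Cd14 was at the WT level. Dendritic cell markers (10 genes, 5 tested, Xcr1 without a read in at least 1 library) summed to 155 to 199 CPM in WT, against 72.0 to 94.4 in IRF8-cKO, with 93% of the total from Bst2. Without Bst2, left out after its values were seen, the other 9 summed to 7.86 to 11.0 CPM in WT, against 8.08 to 9.31 in IRF8-cKO, and overlapped. B cell markers (7 genes, 1 tested, Pax5 without a read in at least 1 library) summed to 6.78 to 17.2 CPM in WT, against 3.27 to 6.91 in IRF8-cKO. Ighm made up 77.5% of that total and was left out after its values were seen. The other 6 summed to 1.35 to 4.40 CPM in WT, against 0.834 to 2.34 in IRF8-cKO, and overlapped. Hepatocyte markers, 10 genes with reads in each library, summed to 80024, 125703 and 102453 CPM in the WT libraries, against 67289, 82398 and 64614 in the IRF8-cKO libraries. As for Cd14, IRF8-cKO-71 and IRF8-cKO-106 lay below each WT library and IRF8-cKO-88 within the WT range. Alb made up 72.3% of that total, and without it, left out after its values were seen, the sums were 18224, 36995 and 31182 CPM in the WT libraries, against 20365, 23519 and 14458 in the IRF8-cKO libraries, with IRF8-cKO-106 alone below each WT library. Stellate cell markers (8 genes) summed to 210 to 328 CPM in WT, against 182 to 319 in IRF8-cKO, and cholangiocyte markers (7 genes, Cftr without a read in at least 1 library) to 456 to 938 and 129 to 250 CPM. Spp1 made up 87.9% of the cholangiocyte total and was left out after its values were seen. The other 6 summed to 48.4 to 99.1 CPM in WT, against 13.1 to 41.5 in IRF8-cKO. The part of cell content in the receptor and adaptor values was not tested.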

How the data were processed

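RNA of 6 liver samples was extracted with Trizol and made into libraries with an NEBNext Ultra RNA kit, per the labels' protocols. The submitters' processing notes list featureCounts 1.5.0-p3, HISAT2 2.0.5 and mm10. The deposited table holds raw read counts per gene, whole numbers with no normalisation by the authors, with gene lengths in bases. Strand setting: not given in the sources used here. Groups and library numbers come from the sample titles, and no number occurs in both groups. Within groups, any 2 libraries differed by more than counting noise (lowest chi-square per degree of freedom 63.1).

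The test was that of edgeR 4.0.16 (R 4.3.3): filterByExpr (minimum count 10, minimum total 15), TMM scaling, a robust quasi-likelihood model of group alone, and two-sided p-values adjusted by Benjamini-Hochberg over all 13134 genes tested, threshold 0.05. Of the 10 genes, 9 are rows of this fit. Fold changes are IRF8-cKO relative to WT, standard errors are their size over the square root of F, and 95% intervals use the test's degrees of freedom. Likeness between genes is Pearson r of log2 CPM with a prior count of 2. Alternatives, with DESeq2 1.42.0 and limma 3.58.1 among them, are given in the closing section. The procedure was also run on simulated counts with the same dispersion per gene in both groups. These hold no library that departs from its group as IRF8-cKO-88 did for Cd14, so that run does not bear on such a case. All 10 genes are named, with each pathway gene that passed or, in a list without one, the gene with the lowest p, and with the 3 genes most like the one of the 10 with the lowest p. The genes, pathway and marker lists and rules were chosen with earlier results of these data known, and other pathway genes named are marked as named after their values were seen; overlapping genes are named for their position.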

Additional observations from a re-analysis of the deposited data

How the results depend on the processing

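Of 15 alternatives, 0 called a receptor, co-receptor or adaptor gene except the fit without IRF8-cKO-88, which called Cd14, so the count ranged from 0 to 1 with 1 library left out. Signs changed for Tlr2 (log2 fold change 0.14 without WT-77; range with 1 library left out -0.78 to 0.14) and Tlr3 (-0.032 with the gene length correction, a lowess curve per library with span 0.5; range with 1 library left out -0.25 to 0.26), none of them called. The other tested genes of the set kept their sign in each alternative. limma-voom gave -2.16 for Cd14 (adjusted p = 0.204). Without the low-count filter Tlr9 could be tested, at -0.44 (adjusted p = 0.828). The 182 calls among all genes became 82 with library totals only, 1723 without the low-count filter, 1423 with DESeq2, 111 with limma-voom and 77 with the length correction, and 0 to 1205 with 1 library left out (0 without WT-77, with 1988 at an unadjusted p under 0.05). The 7 pathway calls became 3 with library totals only, 28 without the filter, 24 with DESeq2, 3 with the length correction and 0 to 21 with 1 library left out. The remaining alternatives were median-of-ratios factors, a minimum of 1 CPM in 3 libraries, a fit without robust shrinkage and removal of the 10 genes with most reads. No paired analysis was possible because the groups share no library number. Low read numbers limit Tlr4, Tlr7 and Tlr9 most.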

Other observations

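Chosen after its values were seen, the pattern of Cd14 over the 6 libraries was compared with those of all tested genes. The closest were Slc39a14, a zinc transporter gene of hepatocytes in the acute-phase response, and the zinc finger genes Zfp943 and Zkscan17 (Pearson r of log2 CPM 0.997, 0.995 and 0.995 over 6 libraries that share depth and scaling, as a description). Slc39a14 stood at 1219, 1850 and 2174 CPM in the WT libraries and at 459, 2036 and 613 CPM in the IRF8-cKO libraries, so IRF8-cKO-88 again lay in the WT range and the other IRF8-cKO libraries below it. The log2 fold change of Slc39a14 was -0.75 (SE 0.54, edgeR adjusted p = 0.410). Not all acute-phase genes shared this pattern. Saa1, Fga and Lcn2, named after their values were seen, were each highest in IRF8-cKO-71, where Cd14 was lowest. They stood there at 10561, 30953 and 4618 CPM, against 2177, 19280 and 2353 CPM in IRF8-cKO-88. A link between Cd14 and the acute-phase response was not tested.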
